A study of Mus musculus with 19 samples.

Results

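The Hox, Pax and Gata genes and the sine oculis homeobox genes, such as Six3 and Six4, encode 4 families of developmental transcription factors that are classic targets of Polycomb repression. They were taken by symbol from the annotated expression table, which gave 40 genes of the 32427 listed there: 21 Hox, 9 Pax, 4 Gata and 6 sine oculis genes. The wider table of read counts, with 55416 genes, holds 60 genes of these families, and the other 20 had no read in any library. Those 20 were Hoxa9, Hoxa10, Hoxa11, Hoxb1, Hoxb8, Hoxb9, Hoxc6, Hoxc8, Hoxc9, Hoxc10, Hoxc11, Hoxc12, Hoxd4, Hoxd9, Hoxd10, Hoxd11, Hoxd12, Hoxd13, Gata4 and Gata5.

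Polycomb repressive complex PRC2 trimethylates a lysine of histone H3 through its catalytic subunit EZH2 or the related EZH1, and PRC1 binds that mark and compacts the chromatin. Hox genes, which give the body axis its identity in 4 chromosomal clusters, and the Pax, Gata and sine oculis genes, which set up eye, midbrain, blood, kidney and forebrain territories, carry the mark in cells that do not use them. Their promoters are typically rich in CpG dinucleotides, the sequence feature that recruits both complexes in mammals. In the adult forebrain most Hox genes are silent, since the clusters are used from the hindbrain backwards.

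Total RNA was sequenced from hippocampus of C57BL6 mice at day 4 after status epilepticus, a prolonged seizure that kainate, an agonist of glutamate receptors, brought on when given repeatedly at low dose, or after saline. WT mice had the genotype EZH2(+/+);Syn1Cre(+/-), and EZH2nHom mice, in which floxed EZH2 alleles were deleted, had the genotype EZH2(-/-);Syn1Cre(+/-). Every animal, controls included, thus carried the Synapsin1-Cre driver, which is active in neurons, so glia and other cells of the knockout keep EZH2 and contribute RNA. The 19 libraries comprise 10 of WT, 5 for each treatment, and 9 of EZH2nHom, of which 5 followed saline and 4 kainate, and the labels used here give no age.

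The libraries held between 24496685 and 43948317 reads, and ranges for the 4 groups overlapped. The hippocampal neuron list of 10 markers, Prox1 and Neurod6 among them, was read in each group at 513 to 1317 CPM in sum, where CPM is reads scaled to a common library size by TMM. In EZH2nHom kainate the list summed to 1121, 513, 649 and 772 CPM, with replicate 2 lowest and replicate 1 highest. Over all genes kept, replicate 2 correlated with the other libraries of its group at 0.944 to 0.953 in log2 CPM. Those libraries correlated with each other at 0.977 to 0.980. Values without replicate 2 are given beside the results on members and lists that it moves most. Ezh2 itself was read at 11.2 ± 1.17, 15.2 ± 4.53, 13.6 ± 1.42 and 17.5 ± 2.39 CPM (mean ± SD) in WT saline, WT kainate, EZH2nHom saline and then EZH2nHom kainate, the order used for the 4 groups throughout. EZH2nHom against WT differed by 0.27 ± 0.16 (log2 ± SE) after saline, which did not pass (edgeR adjusted p = 0.288), and a count over the whole gene and all cell types does not check the genotype labels. Genotype and the sample code prefixes in the labels cannot be told apart, as no prefix occurs in both genotypes. Nothing in the labels says that each library is a separate animal, so the p-values measure the spread between these libraries. Libraries with almost no reads from Y-linked genes numbered 2 of 5, 2 of 5, 0 of 5 and 1 of 4 in that order. This mix thus differed between the genotypes, and the main fit has no term for it.

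Promoter sequence is shown for 4 members on which the results turn. Pax5 RNA was higher after kainate in the knockout, and Six4 and Hoxd1 RNA was lower after kainate when the genotypes were averaged. Hoxd10 lies in the same cluster as Hoxd1 and had no read. Each line gives the 250 bases before the annotated start, 5′ to 3′, from RefSeq on GRCm38.p6, with every CpG in capitals.
Pax5, chr4:44710695-44710944, minus strand: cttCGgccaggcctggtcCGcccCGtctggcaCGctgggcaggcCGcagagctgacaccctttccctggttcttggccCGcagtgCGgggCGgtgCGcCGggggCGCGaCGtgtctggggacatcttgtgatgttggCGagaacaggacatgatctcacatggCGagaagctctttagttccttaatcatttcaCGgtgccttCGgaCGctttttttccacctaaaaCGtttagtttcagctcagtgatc
Six4, chr12:73113246-73113495, minus strand: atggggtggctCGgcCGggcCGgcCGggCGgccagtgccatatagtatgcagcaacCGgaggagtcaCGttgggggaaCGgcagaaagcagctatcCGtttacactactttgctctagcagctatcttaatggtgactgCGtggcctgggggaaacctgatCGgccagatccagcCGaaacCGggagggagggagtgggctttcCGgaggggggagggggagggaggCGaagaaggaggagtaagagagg
Hoxd1, chr2:74762730-74762979, plus strand: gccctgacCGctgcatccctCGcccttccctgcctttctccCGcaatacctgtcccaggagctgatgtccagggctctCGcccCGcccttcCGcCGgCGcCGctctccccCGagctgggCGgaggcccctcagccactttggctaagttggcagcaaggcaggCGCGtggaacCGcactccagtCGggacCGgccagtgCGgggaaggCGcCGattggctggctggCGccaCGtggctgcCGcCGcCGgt
Hoxd10, chr2:74691641-74691890, plus strand: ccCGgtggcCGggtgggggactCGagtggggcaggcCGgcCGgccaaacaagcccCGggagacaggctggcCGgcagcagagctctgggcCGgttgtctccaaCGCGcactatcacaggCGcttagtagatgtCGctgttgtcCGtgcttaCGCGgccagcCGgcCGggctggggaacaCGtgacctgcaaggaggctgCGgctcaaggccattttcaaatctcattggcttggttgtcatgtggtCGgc
These windows held 19, 15, 24 and 20 CpG, a pair of letters that reads the same on both strands, where the median of all 32851 promoter windows in the table was 6. As many CpG as in the Hoxd1 window were found in 11.98% of all windows, and as many as in those of Hoxd10, Pax5 and Six4 in 17.95%, 19.7% and 27.3%. Six4 has a second listed window, which overlaps the printed one. Windows were listed for 38 of the 60 genes (63.3%), under the 80% needed for a check over the set, so CpG content was not compared between silent and read members.

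Most of these genes were silent or nearly so in every group. Of the 60 family genes, 20 had no read in 19 libraries, 19 had between 1 and 9 reads, 15 had between 10 and 99 and 6 had 100 or more. Thus 39 of 60 (65%) stayed under 10 reads, against 4754 of 21928 protein-coding genes in the table (21.7%). A gene with 0 reads over all libraries could still have had up to 0.00482 CPM, the level at 3 reads, a limit that covers counting error only. Hoxd4, with 0 reads, shares 52.3% of its exons with other genes on its own strand. How reads in shared exons were counted is not given in the sources used here, so its 0 is less certain.

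**Figure D1:**
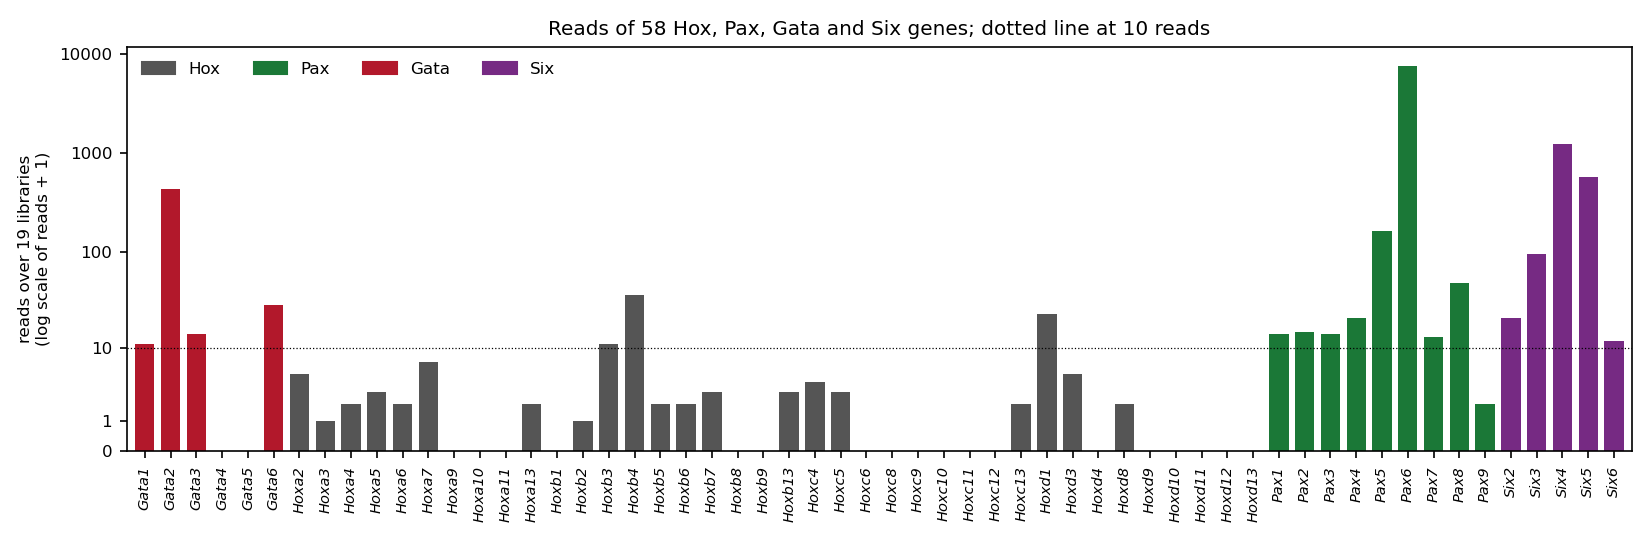
Reads summed over the 19 libraries (vertical axis, log scale of reads + 1) for 58 of the 60 Hox, Pax, Gata and sine oculis genes (horizontal axis), coloured by family, with a dotted line at 10 reads. Pax6 stands highest at 7476 reads, and Hoxb3, Hoxb4 and Hoxd1 are the Hox genes that reach the line.

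The families differed in how far they were silent. Among Hox genes 36 of 39 were under 10 reads, while 8 of 9 Pax genes, 4 of 6 Gata genes and all 6 sine oculis genes had at least 10. Per kilobase of exon, Pax6 averaged 1.02 CPM, Six5 0.306, Six4 0.184, Gata2 0.134, Pax5 0.0291, Six3 0.0284 and Hoxd1 0.0202 over all libraries. Pax6 therefore had the highest level per length of the members named, and Hoxd1, at the foot of that order, was still among the 3 Hox genes that reached 10 reads.

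The whole Hox family of 39 genes gave 128 reads. The 33 reads in WT saline, 44 in WT kainate, 31 in EZH2nHom saline and 20 in EZH2nHom kainate corresponded to 0.211 ± 0.0509, 0.291 ± 0.195, 0.196 ± 0.0938 and 0.135 ± 0.135 CPM (mean ± SD) for all Hox genes in sum. After saline the ratio of EZH2nHom to WT was 0.925, with a counting interval (exact binomial, 95%) of 0.548 to 1.56, so summed Hox RNA was not higher in the neuronal knockout by more than 1.56-fold as far as counting error goes. After kainate the ratio was 0.497 (0.277 to 0.861), with single libraries between 5 and 16 Hox reads in WT and between 0 and 11 in EZH2nHom. Without EZH2nHom kainate replicate 2, which had 0 Hox reads, it was 0.612 (0.342 to 1.06), and without replicate 4, which had 11, it was 0.293 (0.126 to 0.608). The ranges of reads overlapped, and a counting interval leaves out the spread between libraries.

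Reads lay mostly at the low-numbered end of the clusters, where low numbers are used at the front of the hindbrain and high numbers towards the tail. Paralogs 1 to 4 held 97 of the 128 Hox reads (75.8%), from 10 of 12 genes, with 49 reads in the saline and 48 in the kainate libraries. Paralogs 5 to 8 held 24 reads from 8 of 11 genes. Paralogs 9 to 13, the tail end, held 7 reads from 3 of 16 genes, of which 1 was in a saline and 6 in kainate libraries. By cluster, Hoxa on chromosome 6 gave 31 reads from 8 of 11 genes, Hoxb on chromosome 11 gave 58 from 7 of 10, Hoxc on chromosome 15 gave 9 from 3 of 9 and Hoxd on chromosome 2 gave 30 from 3 of 9. Hoxb4 with 36 reads and Hoxd1 with 23 were the largest single sources, and without them 37 genes shared 69 reads.

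Hoxd1, an anterior Hox gene known for its role in hindbrain and in sensory neurons of the skin, was read almost only in saline libraries. WT saline libraries had 4, 2, 1, 1 and 2 reads and EZH2nHom saline libraries 6, 2, 2, 1 and 1. WT kainate libraries had 0, 1, 0, 0 and 0 reads, and EZH2nHom kainate libraries 0 in each of 4. In both genotypes every saline library had a read, and the groups did not overlap in EZH2nHom but met at 1 read in WT. Pooled, Hoxd1 was at least 3.58-fold lower after kainate in EZH2nHom, with the kainate group set at 3 reads (at least 2.91-fold without kainate replicate 2), and in WT the ratio of saline to kainate was 9.95 with a counting interval of 1.42 to 432.

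Hoxd1 did not reach the filter on low counts, so it was tested in the fit without a filter, where all 40 genes entered. There it was lower after kainate in EZH2nHom (adjusted p = 0.0145) and did not pass in WT (adjusted p = 0.118). DESeq2 gave Hoxd1 no adjusted p in either, with unadjusted p of 0.00749 and 0.0305, so DESeq2 made no call on it. In WT 0 of 40 members passed, where 5.63% of genes did (2 at an unadjusted p under 0.05). Only 4.69% of all genes in that fit were called lower and 13.3% were called in either direction in EZH2nHom, and Hoxd1 and Pax5 were the 2 members among them. The mean of both kainate responses, 10 saline against 9 kainate libraries, a contrast chosen after the data had been seen, also called Hoxd1 lower (adjusted p = 0.00176, where 17.4% of genes were called and 6.33% were lower). Leaving out each of the 19 libraries kept Hoxd1 under 0.05 each time, with adjusted p between 0.0151 and 0.0416 in EZH2nHom and between 0.00177 and 0.00440 for the mean response. The noncoding RNA Haglr, which lies beside Hoxd1, had 7, 14, 11 and 1 reads in the 4 groups, low in EZH2nHom kainate as Hoxd1 was but not in WT kainate. In bulk tissue, fewer cells with a transcript and less of it per cell cannot be told apart.

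Hoxb4, known for its part in blood stem cells and the hindbrain, had the reverse lean in its counts. WT libraries had 1, 0, 0, 1 and 3 reads after saline and 1, 1, 3, 8 and 2 after kainate, and EZH2nHom libraries had 3, 1, 0, 0 and 0 and then 4, 0, 3 and 5. The kainate to saline ratio of pooled CPM was 3.02 (counting interval 1.04 to 10.6) in WT and 3.35 (1.02 to 14.3) in EZH2nHom, where it was 4.13 (1.25 to 17.6) without kainate replicate 2 and 2.56 (0.650 to 11.9) without replicate 4. The groups overlapped, and in the unfiltered fit the mean kainate response did not pass (adjusted p = 0.138). Hoxb3 had 1, 7, 2 and 1 reads in the 4 groups in the same order, but 52.9% of its exons overlap Hoxb3os on the other strand, and the strand setting of the count is not given in the sources used here. The other 18 Hox genes with a read had 9 at most, and 12 of them had 3 or fewer.

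**Figure D2:**
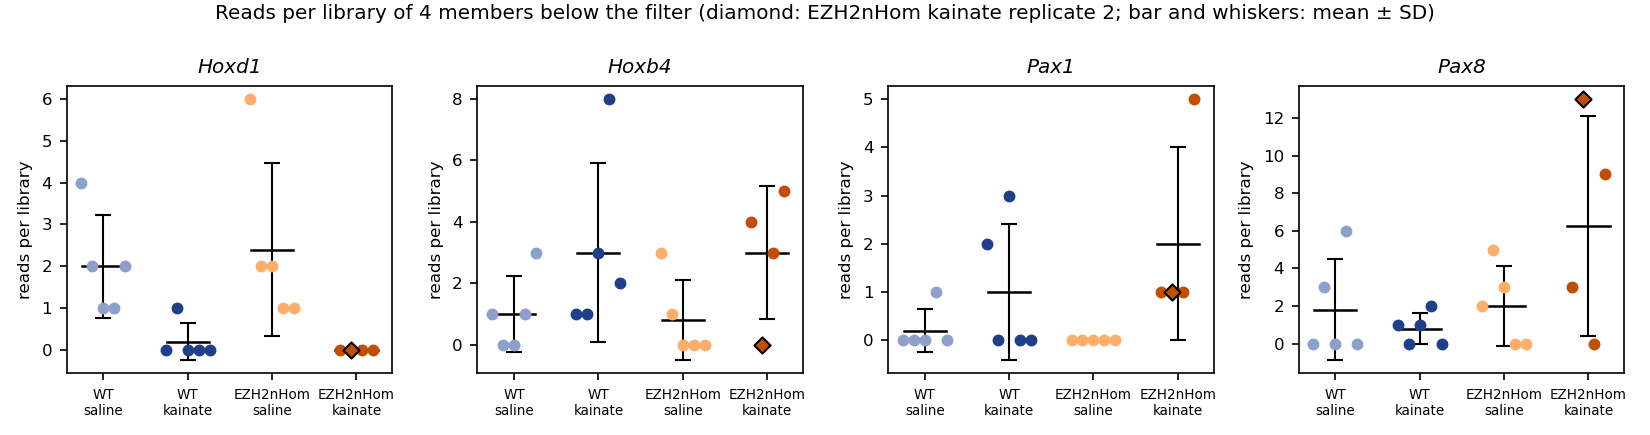
Reads per library (vertical axis) of Hoxd1, Hoxb4, Pax1 and Pax8 in the 4 groups, with points for libraries, a diamond for EZH2nHom kainate replicate 2, and bar and whiskers for mean ± SD. Hoxd1 reads fall to 0 in all 4 EZH2nHom kainate libraries, and Pax1 is at 0 in all 5 EZH2nHom saline libraries.

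The filter on low counts left 7 members for the main test, of which Pax6, Pax5, Gata2, Six3, Six4 and Six5 are described singly. edgeR's quasi-likelihood test was run over 19234 genes with Benjamini-Hochberg adjustment and a threshold of 0.05. After kainate in WT 0 of 7 passed, where 12% of all genes did (0 at an unadjusted p under 0.05, and 0 of 8 tested with DESeq2). After kainate in EZH2nHom 2 of 7 passed, Pax5 and Gata2, both higher, where 26.1% of all genes passed and 14.3% were higher. EZH2nHom against WT had 0 of 7 after saline, where 13.5% of genes passed, and 0 of 7 after kainate, where 7.61% did. In each, 1 member had an unadjusted p under 0.05. DESeq2 called 0 of 7 tested members after saline and 0 of 3 after kainate. The difference of the kainate responses between genotypes called 0 members and 0% of genes, with 2 members at an unadjusted p under 0.05. With DESeq2, 0 of 26 tested members were called for it.

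**Figure D3:**
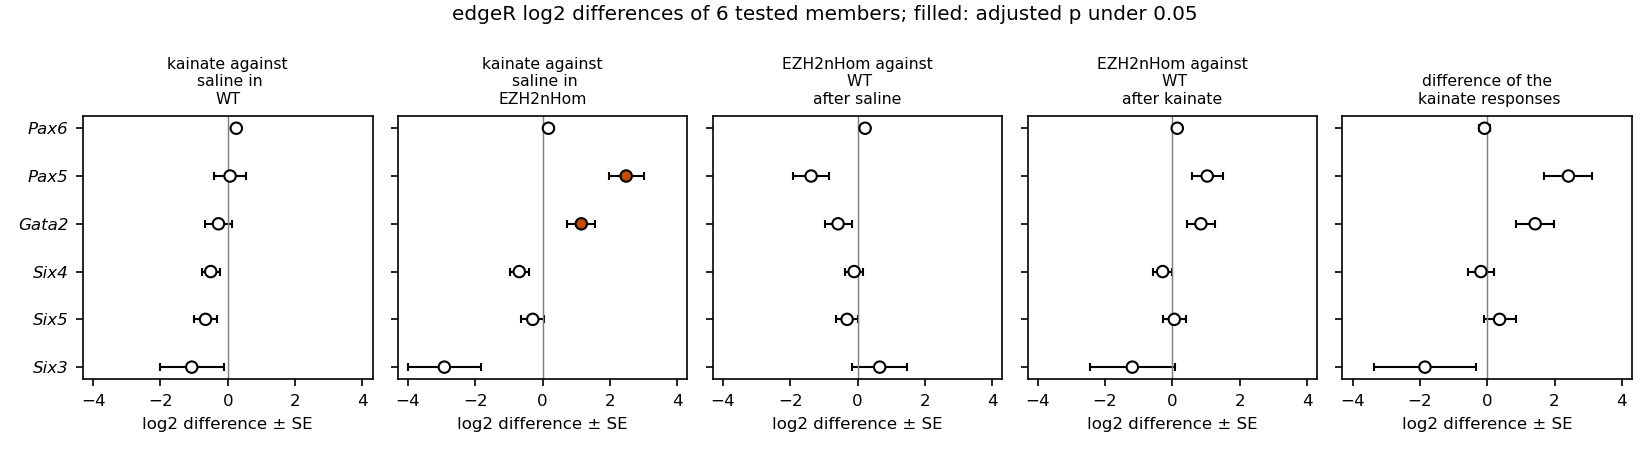
edgeR log2 differences ± SE (horizontal axis) of 6 of the 7 tested members in each of the 5 comparisons, with filled points for an adjusted p under 0.05. Only Pax5 and Gata2 after kainate in EZH2nHom are filled, at 2.48 and 1.15, and the Gata2 value rests on 1 library.

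The genotypes were also compared without a filter, in a fit that holds the 40 genes with a read but can say nothing of those with a few reads or none. Among 40 genes 0 passed for EZH2nHom against WT after saline, where 5.93% of genes did, and 0 after kainate, where 2.95% did (1 and 4 members at an unadjusted p under 0.05). DESeq2 called 0 as well, but it gave an adjusted p to only 7 members after saline and 3 after kainate, so it made no call on the rest. The median log2 difference of the 7 tested members was -0.15 after saline and 0.06 after kainate, beside 0.02 and 0.00 over all genes tested, and without EZH2nHom kainate replicate 2 it was -0.15 and -0.07.

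Pax5, which commits B cells and helps to pattern the midbrain and hindbrain border, was low in the EZH2nHom saline group and high after kainate. WT libraries had 0.226, 0.245, 0.310, 0.162 and 0.242 CPM after saline and 0.352, 0.194, 0.145, 0.275 and 0.266 after kainate. EZH2nHom libraries had 0.0542, 0.166, 0.0296, 0 and 0.208 CPM after saline and 0.779, 0.294, 0.393 and 0.557 after kainate. The EZH2nHom groups did not overlap, and the WT groups did.

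On the log2 scale the kainate response of Pax5 was 2.48 ± 0.52 in EZH2nHom (edgeR adjusted p = 0.00182) and 0.07 ± 0.47 in WT (0.954). The difference of the responses was 2.41 ± 0.71, with an unadjusted p of 0.00304 and an adjusted p of 0.439, so a difference between genotypes was not established across all genes. Pax5 was lower in EZH2nHom than in WT after saline by a log2 difference of -1.38 ± 0.54, which did not pass (adjusted p = 0.0990) but did without EZH2nHom saline replicate 5 (-1.99, adjusted p = 0.0299). The response in EZH2nHom was as large without EZH2nHom kainate replicate 2 (2.66 ± 0.53, adjusted p = 0.00120). Every read behind these values was one of 165, with 14 in EZH2nHom saline and 75 in EZH2nHom kainate.

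The B cell list without Pax5 lay higher after kainate in WT, where Pax5 did not. Its 7 genes summed to 7.26 to 11.7 CPM in WT saline, 14.1 to 19.5 in WT kainate and 9.72 to 12.3 in EZH2nHom saline. In EZH2nHom kainate it reached 15.1, 14.9 and 20.4 CPM in replicates 1, 3 and 4 and 5.98 in replicate 2, so that 3 of 4 libraries lay above the saline range. Ighm, an antibody heavy chain gene, gave most of these reads except in EZH2nHom kainate replicate 2. Cd79b, a subunit of the B cell receptor, had 28, 108, 32 and 134 reads in the 4 groups and was higher after kainate in WT (1.99 ± 0.40, edgeR adjusted p = 0.00264) and in EZH2nHom (2.21 ± 0.40, 0.000564). Its partner Cd79a had 5, 22, 17 and 5 reads and the surface marker Ms4a1 had 7, 6, 6 and 9. The part of B cells in the Pax5 result was not tested.

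Pax6, which maintains radial glia and adult hippocampal stem cells, was the most abundant member. WT libraries had 12.2, 10.001, 10.2, 10.2 and 8.61 CPM after saline and 11.9, 12.8, 11.7, 12.9 and 11.6 after kainate. EZH2nHom libraries had 13.1, 11.2, 12.3, 11.1 and 12.1 CPM after saline and 14.9, 9.61, 13.025 and 16.4 after kainate. In both genotypes the groups overlapped, in WT through saline replicate 1 and in EZH2nHom through kainate replicate 2.

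The kainate response of Pax6 was 0.25 ± 0.12 on the log2 scale in WT (adjusted p = 0.208) and 0.17 ± 0.13 in EZH2nHom (0.347). Without EZH2nHom kainate replicate 2 it passed in EZH2nHom (0.30 ± 0.10, adjusted p = 0.0330, where 31.2% of genes passed) and in the mean of both responses (0.28 ± 0.07, adjusted p = 0.00371, where 39.8% did), but not in WT (adjusted p = 0.0625). EZH2nHom against WT was 0.23 ± 0.12 after saline (adjusted p = 0.245) and 0.15 ± 0.13 after kainate (0.529). The 10 genes of the stem and progenitor list summed to 161 to 173 CPM in WT saline, 177 to 330 in WT kainate, 134 to 155 in EZH2nHom saline and 188 to 241 in EZH2nHom kainate, so the sum lay higher after kainate in both genotypes without overlap. Its members went both ways: Thbs4 and Nes were higher in WT, and in EZH2nHom Thbs4, Nes, Notch1 and Sox2 were higher while Neurod1 was lower (-1.09 ± 0.18, adjusted p = 0.000289). The median log2 response of the list was 0.20 in WT and -0.23 in EZH2nHom, and 0.04 in EZH2nHom without kainate replicate 2. The part of these cells in the Pax6 values was not tested.

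The remaining Pax genes were read in traces. Pax8, used in thyroid, kidney and inner ear, had 9, 4, 10 and 25 reads in the 4 groups, of which 13 and 9 came from EZH2nHom kainate replicates 2 and 4. Pax1, a gene of the spinal column and thymus, had 1, 5, 0 and 8 reads and was at least 2.98-fold higher after kainate in EZH2nHom, with the saline group set at 3 reads. Of the 8 reads 5 came from replicate 4, and without it the 3 that remain allow no bound. In the unfiltered fit Pax1 did not pass in EZH2nHom (adjusted p = 0.0563) and passed as higher in the mean response (adjusted p = 0.0292). That call was lost without WT kainate replicate 1 or 3 or EZH2nHom kainate replicate 4 (adjusted p = 0.0531, 0.0903 and 0.0802). Without a filter and without EZH2nHom kainate replicate 2 the mean response called 5 members, Pax5, Pax6 and Pax1 higher and Six4 and Hoxd1 lower, where 21.8% of genes were called. Pax4, a pancreatic gene, had 1, 9, 5 and 6 reads, Pax2 had 3, 8, 2 and 2, Pax3 had 2, 3, 7 and 2, Pax7 had 2, 4, 3 and 4 and Pax9 had 1, 0, 1 and 0.

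**Figure D4:**
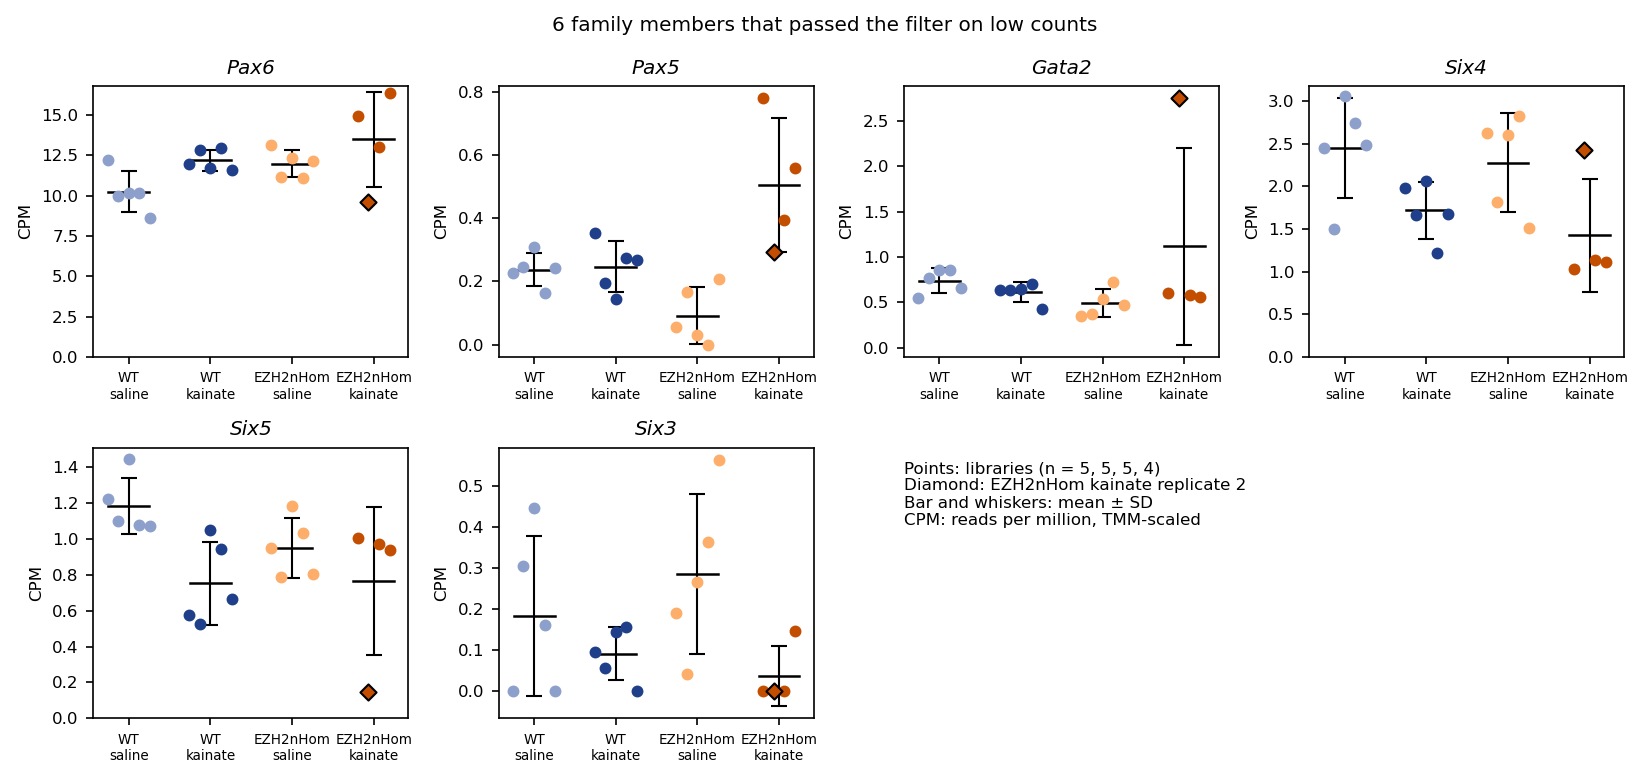
CPM per library (vertical axis, linear, 1 scale per gene) of 6 of the 7 members that passed the filter, with points for libraries, a diamond for EZH2nHom kainate replicate 2, and bar and whiskers for mean ± SD. Pax5 in EZH2nHom separates saline (0 to 0.208 CPM) from kainate (0.294 to 0.779), and the diamond lies at the edge of its group for Gata2 (2.75), Six4 (2.42) and Six5 (0.147).

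Gata2, a regulator of blood progenitors and of endothelium that also specifies midbrain inhibitory neurons, passed in EZH2nHom through 1 library. WT libraries had 0.548, 0.765, 0.860, 0.862 and 0.657 CPM after saline and 0.640, 0.637, 0.653, 0.706 and 0.426 after kainate. EZH2nHom libraries had 0.352, 0.373, 0.533, 0.730 and 0.476 CPM after saline and 0.603, 2.75, 0.577 and 0.557 after kainate. Replicate 2 was thus the high one, and the other 3 kainate libraries lay within the saline range.

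The log2 response of Gata2 in EZH2nHom was 1.15 ± 0.41 (adjusted p = 0.0460) with all libraries and 0.23 ± 0.26 (adjusted p = 0.551) without EZH2nHom kainate replicate 2. It also missed the threshold without a filter (adjusted p = 0.0561), in a fit of the EZH2nHom groups alone (0.149), and without EZH2nHom saline replicate 1, 2, 3 or 5 (adjusted p = 0.101, 0.0918, 0.0692 and 0.0763). In WT the response was -0.28 ± 0.39 (adjusted p = 0.724). In EZH2nHom kainate replicate 2 the 8 endothelial markers summed to 153 CPM against 107 to 124 in the rest of its group, and the thalamus and midbrain list to 164 against 99.4 to 123. The mast cell list without Gata2 summed to 43.1 CPM there, inside the group's range of 37.6 to 67.4, but Kit alone gave all 43.1 CPM. Cpa3, Mcpt4, Tpsb2 and Cma1 had 0 reads in that library, and the defining gene Fcer1a had 0 reads in every library. The sum thus reads the level of Kit and is no measure of mast cells. The part of these cell types in the Gata2 value was not tested.

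The blood and endoderm Gata genes were at trace level. Gata6, found in resident peritoneal macrophages and in vessel walls, had 11, 4, 7 and 7 reads in the 4 groups. Gata3, used in T cells and midbrain neurons, had 9, 2, 3 and 0 reads, and Gata1, the red cell factor, had 2, 3, 1 and 5. No group of these 3 genes exceeded 11 reads, and none passed in the unfiltered fit.

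The sine oculis family gave fewer reads after kainate in both genotypes. Its 6 genes together gave 4.10 ± 0.805 CPM in WT saline, 2.89 ± 0.422 in WT kainate, 3.76 ± 0.815 in EZH2nHom saline and 2.44 ± 0.193 in EZH2nHom kainate (mean ± SD, n = 5, 5, 5 and 4). The kainate to saline ratio of the sum was 0.702 (counting interval 0.621 to 0.793) in WT and 0.632 (0.552 to 0.721) in EZH2nHom, or 0.620 (0.536 to 0.715) without kainate replicate 2. Six4 and Six5, the members with 1228 and 575 reads, made up most of this sum. The list of 10 choroid plexus markers was very uneven between libraries. It summed to 24.8 to 4167, 39.2 to 1232, 43.7 to 3929 and 22.9 to 732 CPM in the 4 groups. The medians were 450, 247, 2871 and 59.9 CPM, lower after kainate in both genotypes. The part of this tissue in the values of the family, Six4 and Six5 included, was not tested. Six4 and Six5 are broadly expressed factors, and Six5 lies beside the myotonic dystrophy gene Dmpk.

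Six4 had 2.45, 1.499, 3.06, 2.75 and 2.49 CPM in WT saline and 1.98, 1.66, 2.07, 1.22 and 1.68 in WT kainate. In EZH2nHom it had 2.63, 1.82, 2.61, 2.83 and 1.52 CPM after saline and 1.03, 2.42, 1.13 and 1.11 after kainate. The groups overlapped in both genotypes, in WT through the low saline replicate 2 and in EZH2nHom through the high kainate replicate 2.

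The log2 kainate response of Six4 was -0.51 ± 0.26 in WT (adjusted p = 0.240) and -0.69 ± 0.28 for EZH2nHom (0.0746). Without EZH2nHom kainate replicate 2 the latter was -1.06 ± 0.25 and passed (adjusted p = 0.00423). Six4 also passed in EZH2nHom without EZH2nHom saline replicate 5 (-0.81, adjusted p = 0.0459). The mean of both responses was -0.60 ± 0.19 and passed (adjusted p = 0.0210), in a contrast in which 32.1% of genes passed and 14.4% were lower, and -0.79 ± 0.16 without EZH2nHom kainate replicate 2 (adjusted p = 0.00105).

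Six5 had 1.22, 1.10, 1.45, 1.08 and 1.07 CPM in WT saline and 0.576, 0.526, 1.05, 0.942 and 0.666 in WT kainate. In EZH2nHom it had 0.948, 0.786, 1.19, 1.03 and 0.803 CPM after saline and 1.0045, 0.147, 0.970 and 0.938 after kainate. The WT groups did not overlap, whereas in EZH2nHom 3 of 4 kainate libraries lay inside the saline range and replicate 2 lay far below it.

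The log2 kainate response of Six5 was -0.66 ± 0.33 in WT and did not pass (adjusted p = 0.221). Without EZH2nHom kainate replicate 2, which widens the shared estimate of the spread, the WT value was -0.66 ± 0.21 and passed (adjusted p = 0.0330, where 17.5% of genes did). In EZH2nHom the response was -0.29 ± 0.35 (adjusted p = 0.571), and 0.02 ± 0.23 without that library. The difference of the responses without it was 0.69 ± 0.31, which did not pass (adjusted p = 0.429).

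Six3, a forebrain and eye gene that in the adult marks striatal neurons, was uneven between libraries. WT libraries had 0, 10, 13, 6 and 0 reads after saline and 3, 2, 4, 4 and 0 after kainate, and EZH2nHom libraries 7, 1, 9, 12 and 19 after saline and 0, 0, 0 and 5 after kainate. Groups overlapped in both genotypes, and the log2 response was -1.07 ± 0.95 in WT (adjusted p = 0.536) and -2.92 ± 1.09 for EZH2nHom (0.0551). It passed in EZH2nHom when any of 5 single libraries was left out (WT saline 1 or 5, WT kainate 5, EZH2nHom saline 2 or EZH2nHom kainate 4), with adjusted p between 0.0191 and 0.0487. Over all single libraries left out the fitted value lay between -6.27 and -2.47, the lowest without EZH2nHom kainate replicate 4, which held all 5 reads of its group, so that value is no bound. The mean response passed (-1.99 ± 0.73, adjusted p = 0.0420), but not without EZH2nHom kainate replicate 2 (adjusted p = 0.0599) or without a filter (0.0692).

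The opposite-strand RNA Six3os1, which overlaps 5.03% of the Six3 exons together with a further transcript, had 6, 49, 53, 70 and 0 reads in WT saline and 16, 9, 15, 43 and 2 in WT kainate. In EZH2nHom it had 43, 4, 55, 83 and 41 reads after saline and 7, 0, 7 and 28 after kainate. Libraries with no Six3 read were low in Six3os1 as well, at 0 to 7 reads. The striatal list without Six3 summed to 37.2 to 69.2, 47.8 to 65.9, 37.1 to 74.99 and 47.7 to 63.7 CPM in the 4 groups, which overlapped. Its members differed: Drd1 was higher after kainate in WT, and in EZH2nHom Drd1 and Rgs9 were higher and Ppp1r1b was lower (-0.84 ± 0.30, adjusted p = 0.0463), though without EZH2nHom kainate replicate 2 the calls of Drd1 and Ppp1r1b in EZH2nHom were lost. The median log2 response of the list with Six3 was 0.10 in WT and -0.62 in EZH2nHom, and the amount of neighbouring tissue was not tested as a source of Six3 RNA.

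Six2, a kidney progenitor gene, had 8, 10, 2 and 1 reads, fewer in EZH2nHom in both treatments. For Six2 the pooled CPM of WT was 4.06 times that of EZH2nHom after saline (counting interval 0.811 to 39.3) and 9.15 times after kainate (1.30 to 397), and neither passed in the unfiltered fit. Six6, an eye and hypothalamus gene, had 1, 1, 7 and 3 reads.

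Genes around these families were compared through lists of partners and of other Polycomb targets. Of 106 other Polycomb-silenced genes, mostly homeobox, Tbx, Fox and Zic factors, 44 were tested. After kainate in WT 2 were higher and 4 lower, where 12% of all genes passed, and in EZH2nHom 1 was higher and 9 lower, where 26.1% did. Without EZH2nHom kainate replicate 2 these counts were 3 and 5 of 47 in WT and 6 and 9 of 47 in EZH2nHom, and 9 of the 10 genes called in EZH2nHom were called again. The list of 8 interneuron markers, which shares Lhx6 with it, had 2 lower in WT (Adarb2 and Gad1) and 6 lower in EZH2nHom, with and without that library, and its part in the list's values was not tested. Examples are the interneuron gene Dlx1 (log2 -0.58 ± 0.19 in WT, adjusted p = 0.0485, and -1.03 ± 0.20 in EZH2nHom, 0.00101), Lhx9 (-0.69 ± 0.21, 0.0344, and -1.11 ± 0.23, 0.00136) and the cortical gene Emx2 (-0.60 ± 0.14, 0.00910, and -0.45 ± 0.15, 0.0360). Dlx1 and Emx2 are genes of forebrain neurons and their precursors. Bcl2l11, which encodes the cell death protein Bim, was higher after kainate in both genotypes (0.57 ± 0.16, adjusted p = 0.0229, and 0.67 ± 0.17, 0.00689).

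For EZH2nHom against WT after saline, where 13.5% of all genes passed, 0 of the 44 were higher and 2 lower (Bcl2l11 -0.53 ± 0.16, adjusted p = 0.0336, and Foxc2 -1.16 ± 0.35, 0.0338), and after kainate 0 of 44 passed in edgeR (2 at an unadjusted p under 0.05, and 0 of 32 tested with DESeq2). Their median log2 difference was 0.11 after saline and -0.10 after kainate. No tested gene of these other targets was thus called higher in the neuronal knockout by edgeR with all libraries. DESeq2 called Dlx5 higher after saline, and edgeR without EZH2nHom kainate replicate 2 called Dlx5 (0.91 ± 0.32, adjusted p = 0.0475) and Nkx2-2 (0.63 ± 0.20, 0.0287) higher. In the 14-gene PRC2 list Phf19, an accessory subunit, was higher after kainate in both genotypes (1.58 ± 0.39, adjusted p = 0.0103, and 1.77 ± 0.40, 0.00297), and Ezh1 was lower in EZH2nHom (-0.43 ± 0.11, 0.00892). Both were called again when EZH2nHom kainate replicate 2 was left out, and Epop was lower as well in both genotypes and Mtf2 and Rbbp7 in EZH2nHom.

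Of the partners of the families, those called after kainate in WT by edgeR were higher, and those called in EZH2nHom went in both directions, where 12% and 26.1% of all genes passed. Without EZH2nHom kainate replicate 2 every partner called with all libraries was called again, and Pknox1 and Lmo1 in WT and Lmo4 in EZH2nHom were added. Of 9 Hox cofactors 0 passed in WT after kainate (1 at an unadjusted p under 0.05, and 1 with DESeq2), and in EZH2nHom 1 was higher (Meis3 0.32 ± 0.10, adjusted p = 0.0201) and 3 lower (Pknox2 -0.63 ± 0.14, 0.00292, Meis2 -0.58 ± 0.19, 0.0282, and Pbx2 -0.47 ± 0.16, 0.0359). Of the 6 Eya and Dach genes, whose proteins work with sine oculis factors, Eya4 was higher after kainate in both genotypes (0.77 ± 0.15, 0.00221, and 0.96 ± 0.16, 0.000256), and Dach1 and Eya3 were lower in EZH2nHom (-1.10 ± 0.28, 0.00698, and -0.29 ± 0.08, 0.0118). Of 9 Gata partners Lyl1 was higher after kainate in both (1.38 ± 0.39, 0.0241, and 1.60 ± 0.41, 0.00667), Lmo2 was higher in EZH2nHom (0.63 ± 0.20, 0.0282), and Ldb2 and Lmo1 were lower there (-0.47 ± 0.12, 0.00560, and -0.999 ± 0.274, 0.0109). For the difference of the kainate responses 0 genes of these 5 lists passed with edgeR or DESeq2 (6 at an unadjusted p under 0.05), so a response that passed in one genotype only is not shown to differ between them.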

How the data were processed

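Total RNA depleted of cytoplasmic and mitochondrial ribosomal RNA was sequenced from 19 hippocampus libraries. The deposited table of raw read counts per gene was the only input to the tests. A second deposited table holds the authors' normalised counts (a signal scaled by size factor), log2 fold changes, test statistics (a score) and p-values, and only its gene symbols were used. The build mm39 and DESeq2 are named per the submitters' processing notes; aligner, counter and strand setting are not given in the sources used here. Genes were kept by edgeR's filterByExpr, scaled by TMM and fitted with the quasi-likelihood model (edgeR 4.0.16, R 4.3.3) on group means of all 19 libraries, with Benjamini-Hochberg adjustment over all genes tested and a threshold of 0.05. DESeq2 1.42.0 was an alternative, and the scripts were tested on simulated data. Silent genes were described by reads, with exact binomial 95% intervals and a floor of 3 reads, both for counting error only.

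The members and lists were chosen with earlier results of these data known. Named in full are members that passed in a comparison, that averaged 1 CPM in a group, or that had 1 of the 3 smallest p-values in a comparison; members with at least 10 reads that missed the filter are named by reads. From the lists described here, some passing genes are named as examples and not in full. Further lists are not described, among them those of PRC1, red cells, microglia, astrocytes and the oligodendrocyte lineage, and they hold passing genes too. The mean kainate response, the unfiltered leave-one-out fits, and the ratios, list counts and medians without single EZH2nHom kainate libraries were added after seeing the data. Promoters come from RefSeq on GRCm38.p6, and exon overlaps from GENCODE M21, neither of the files' build. A few genes are not reported here by name and stay in the counts and sums.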

Additional observations from a re-analysis of the deposited data

Results flagged for a closer look

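Of 32 groups of 4 or 5 libraries examined for a library far from the rest, 5 had one, and chance gives about 1 in 20. EZH2nHom kainate replicate 2 was far above its group for Gata2 (2.75 CPM against 0.557 to 0.603) and Six4 (2.42 against 1.03 to 1.13), and far below it for Six5 (0.147 against 0.938 to 1.0045). For Six3, EZH2nHom kainate replicate 4 had 0.146 CPM and the other 3 libraries 0. Gata2 was at 0.426 CPM in WT kainate replicate 5 against 0.637 to 0.706 in the others.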

How the results depend on the processing

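Leaving out 1 library gave 550 values for 6 single members, of which 523 kept direction and side of the threshold, 5 lost a call, 10 gained one and 12 turned direction, with 0 of those 12 past the threshold. The other alternatives gave 180 values, with 176 kept, 3 lost and 1 turned, Six5 in EZH2nHom against WT after kainate with the replicate block (-0.058282). The 2 members called after kainate in EZH2nHom became 1 in a fit of the compared groups alone, 1 with the replicate block (Gata2 lost, adjusted p = 0.123) and 0 with a stricter filter, which leaves 3 members and not Pax5, and 1 to 3 when a library was left out. Leaving out a library gave 0 to 1 members after kainate in WT, 0 to 1 for EZH2nHom against WT after saline, and 0 for the other comparisons; the causes were not tested. A fit with the level of Y-linked genes as a covariate called 2 members after kainate in EZH2nHom and 0 in each other comparison, as the main fit did. Over all genes it called 2107 in place of 2596 for EZH2nHom against WT after saline. The mean kainate response called 3 members, 4 without a filter and 5 without a filter and without EZH2nHom kainate replicate 2. The 21 genes with at least 10 reads become 40 at 1 read, 7 at 50 reads, and 19 to 21 when a library is left out.

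Ranges when a library was left out that crossed 0 were, in log2, -0.0731 to 1.07 for Gata2, -0.0952 to 0.379 for Six5 (both EZH2nHom against WT after kainate), -0.283 to 0.0164 for Six4 (EZH2nHom against WT after saline), -0.105 to 0.196 for Pax5 after kainate in WT, -0.425 to 0.0245 for Six5 after kainate in EZH2nHom, and -0.187 to 0.0483 for Pax6 in the difference of the responses. Over all genes, a fit of the compared groups alone called 4 genes in place of 1463 for EZH2nHom against WT after kainate, 5604 in place of 2596 after saline, and 3066 in place of 5012 after kainate in EZH2nHom. Replicate numbers were not taken to pair the libraries, since in no comparison did every pair's deviations correlate over 0.1 (-0.0862 to 0.407 in all). In WT kainate 4 of 5 libraries were closest to their own number, with correlations from 0.0767 to 0.309, a hint from the data and not from the design. The titles number the EZH2nHom kainate libraries 1 to 4 and the column names 2 to 5. With the column numbers the correlations involving that group were -0.255 to 0.245, and the block, an alternative added after seeing the data, called 2 members after kainate in EZH2nHom, Pax5 and Six4 (-0.69, adjusted p = 0.0479), and not Gata2 (0.103), with 4381 calls over all genes. The replicate block moved the calls over all genes from 2316 to 2477 in WT and from 5012 to 5023 in EZH2nHom. Depth limits all members with under 10 reads to a statement of counts.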

Other observations

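Cdkn2a, a cell cycle inhibitor gene and classic Polycomb target outside the 4 families, had 3 reads in WT saline, 4 in WT kainate, 0 in EZH2nHom saline and 19 in EZH2nHom kainate. The EZH2nHom kainate libraries had 3, 6, 2 and 8 reads, so all 4 were above the 5 EZH2nHom saline libraries. It did not reach the filter of the edgeR fit, and DESeq2 called it after kainate in EZH2nHom, where 5626 of 22983 genes were called. Cdkn2a was picked from the list of 106 other Polycomb-silenced genes. In that list DESeq2 called 0 of 32 tested genes for EZH2nHom against WT after kainate and 0 of 80 for the difference of the kainate responses. Whether Cdkn2a was among those tested is not given here. A difference between genotypes is thus not shown for it.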
